A study of Mus musculus with 8 samples.

Results

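The 3 placental proliferins Prl2c2, Prl2c3 and Prl2c5 and 2 genes best known from myeloid cells, Mrc1 and Mcpt8, were followed in primary murine pancreatic ductal adenocarcinoma (PDAC) lines with and without inhibition of MEK. These 5 of the 34478 genes in the deposited table were selected on the readout itself, because several of them are among those with the lowest values relative to control after treatment. The difference between treated and control libraries is therefore how they were chosen, and for these 5 genes it is given as a description with no test. The libraries came from 4 primary PDAC lines, numbered #1, #3, #5 and #10, derived from pancreatic tumours of mice that carry Ptf1awt/Cre and Trp53loxP/loxP. The labels do not say whether each line came from a separate mouse. In that model Cre under the control of Ptf1a, a gene of pancreatic progenitors and acinar cells, removes Trp53, and the genotype is the same in all 8 libraries. Each line was exposed to the MEK inhibitor trametinib (MEKi) for 48 h at its own half-maximal inhibitory concentration, or to the solvent DMSO, with 1 library per line and treatment. The concentrations were not given in the labels, and the ages of the mice were not given either.

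Proliferins are hormones of the prolactin family. Trophoblast giant cells of the mouse placenta secrete them in mid-gestation, where they promote growth of vessels, and growing fibroblasts make them after stimulation with serum or growth factors. Mrc1 encodes the macrophage mannose receptor, also called CD206, a lectin that takes up glycoproteins and is widely used as a marker of alternatively activated macrophages. Mcpt8 encodes a serine protease of basophil granules and lies in the locus of chymases and granzymes. MEK activates the kinase ERK, which in turn controls transcription factors of the ETS and AP-1 families, and trametinib blocks MEK.

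On the GRCm38 build, with GENCODE M21 annotation, the 3 proliferin genes are consecutive protein-coding genes of chromosome 13. Prl2c3 lies on the minus strand from 12790816 to 12800079, Prl2c2 on the minus strand from 12996125 to 13005383, and Prl2c5 on the plus strand from 13182715 to 13191923. Mrc1 lies on the plus strand of chromosome 2 from 14229392 to 14332057. Mcpt8 lies on the minus strand of chromosome 14 from 56082166 to 56085273. None of the 5 had an exon that overlaps an exon of another annotated gene.

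The proliferin transcripts are near copies of each other, which decides how far reads can be assigned to one gene. The coding sequences of Prl2c2 and Prl2c3 are each 672 bases long and were identical at 669 of them (99.6%). Counted from the first base of the start codon, with the base of Prl2c2 first and that of Prl2c3 last, the 3 differences were T14C, C200A and T319G. The coding sequence of Prl2c5 is 6 bases shorter and had 20 mismatches to Prl2c2 and 21 to Prl2c3. Bases 200 to 319, counted along Prl2c2, are shown for the 3 genes from the GENCODE M21 transcripts, because this stretch holds 2 of the differences between Prl2c2 and Prl2c3. Capitals mark the 8 bases of the stretch at which the 3 genes are not all alike.
Prl2c2: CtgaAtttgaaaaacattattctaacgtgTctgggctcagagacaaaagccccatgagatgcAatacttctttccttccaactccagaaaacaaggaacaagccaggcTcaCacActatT
Prl2c3: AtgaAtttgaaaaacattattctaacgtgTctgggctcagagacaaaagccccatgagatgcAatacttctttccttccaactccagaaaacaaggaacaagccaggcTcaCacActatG
Prl2c5: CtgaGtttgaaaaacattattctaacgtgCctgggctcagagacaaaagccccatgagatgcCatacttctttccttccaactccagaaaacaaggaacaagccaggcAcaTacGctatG
In this stretch, Prl2c2 and Prl2c3 differ only at the first and the last base, whereas Prl2c5 has a base of its own at most of the capitals.

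Libraries were sequenced from both ends of each fragment with reads of 100 bases. Of the 743 windows of 100 bases in the Prl2c2 transcript, 250 (33.6%) occurred in neither of the other proliferin transcripts. The share was 37.7% for Prl2c3 and 97.2% for Prl2c5. Of the Prl2c2 windows, 63.5% were also in Prl2c3, and the processing notes do not say how reads of such stretches were assigned. Values of Prl2c2 and Prl2c3 are therefore uncertain as a split. If such reads were divided between both genes, their sum is not affected by the division. Mcpt8 shared no window of 100 bases with any of 13 related chymase, cathepsin G and granzyme genes, to which its coding sequence was 58.7% to 66.7% identical. Mrc1 shared none with Mrc2, Pla2r1 and Ly75, at 56.3% to 60.6% identity.

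With DMSO, Prl2c2 stood at 1083 normalized counts in line #1, 587 in line #3, 826 in line #5 and 2452 in line #10, a mean of 1237 ± 835 (SD, n = 4). With MEKi the same lines held 19.9, 6.59, 10.7 and 19.9 normalized counts, a mean of 14.3 ± 6.71 (SD, n = 4). Every treated library was far below every control library, and line #10 was highest with DMSO. The level with DMSO was 54.3, 89.1, 77.4 and 124 times that with MEKi in lines #1, #3, #5 and #10. On the scale of log2(normalized count + 1), used throughout for differences and lower for genes with few counts, the difference of MEKi minus DMSO averaged -6.25 ± 0.49 (SD, n = 4). The 4 lines thus differed more in their level with DMSO, which spanned 4.17-fold, than in the share that was left, which ran from 0.810% to 1.84%.

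Prl2c3 with DMSO stood at 87.2, 90.3, 48.8 and 384 normalized counts in lines #1, #3, #5 and #10, a mean of 152 ± 155 (SD, n = 4). With MEKi it was at 3.06, 0, 0.637 and 3.04 normalized counts, which corresponds to about 3, 0, 1 and 3 reads. Line #10 was again the highest control library, and the groups did not overlap. In line #3, where the gene was listed at 0 with MEKi, the level with DMSO was at least 32.0-fold higher than the floor of 3 reads in that library. With 3 or fewer reads in the treated library, the ratio of DMSO to MEKi was 28.5 in line #1 (95% exact interval 9.98 to 147), 76.7 in line #5 (10.2 to 2439) and 126 in line #10 (45.2 to 648). These intervals cover counting error only.

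Prl2c5 was the weakest of the 3 proliferins. In control libraries of lines #1, #3, #5 and #10 it stood at 12.9, 6.53, 3.80 and 25.1 normalized counts, or about 17, 6, 3 and 26 reads, and it was listed at 0 in all 4 libraries with MEKi. Against the floor of 3 reads, the control level was at least 4.41-fold higher in line #1, 2.32-fold in line #3 and 8.72-fold in line #10, whereas line #5 was too close to the floor for a statement of size. With a mean of 6.04 over the 8 libraries, Prl2c5 was the 1 member of the 5 that did not reach the mean of 10 required of tested genes.

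The 3 proliferins together summed to 1183, 684, 879 and 2860.4 normalized counts with DMSO and to 23.01, 6.59, 11.3 and 22.9 with MEKi, in the same order of lines. This sum, which does not depend on any division of shared reads between the genes, was 51.4, 104, 77.7 and 125 times higher with DMSO. Prl2c2 made up 91.5%, 85.9%, 94.0% and 85.7% of the sum in the 4 control libraries, and Prl2c5 at most 1.09%.

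Mrc1 stood at 1293 normalized counts in line #1, 4739 in line #3, 1050.3 in line #5 and 3939 in line #10 with DMSO, a mean of 2755 ± 1860 (SD, n = 4). With MEKi the lines held 3.71, 25.5, 22.7 and 67.8 normalized counts, a mean of 29.9 ± 27.0 (SD, n = 4). Among control libraries, lines #1 and #5 were the lower pair and lines #3 and #10 the higher pair, and no treated library came near either. The level with DMSO was 348 times that with MEKi in line #1, 186 times in line #3, 46.3 times in line #5 and 58.1 times in line #10. The log2 difference averaged -6.72 ± 1.27 (SD, n = 4), from -8.10 in line #1 to -5.47 in line #5. With DMSO it ranked above 60.2% to 90.5% of the 15888 tested genes of a library, and with MEKi above 1.72% to 24.9%.

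In control libraries Mcpt8 stood at 487, 145, 478 and 629.8 normalized counts in lines #1, #3, #5 and #10, a mean of 435 ± 205 (SD, n = 4). With MEKi it was at 5.73, 0.987, 4.86 and 9.02 normalized counts, a mean of 5.15 ± 3.30 (SD, n = 4), which is between about 1 and 9 reads. Line #3 was the lowest under both treatments, and line #10 the highest. The level with DMSO was 84.9, 98.4 and 69.9 times that with MEKi in lines #1, #5 and #10. In line #3 the ratio was 147, but with about 1 read in the treated library its 95% exact interval ran from 27.2 to 6131. The log2 differences of the 4 lines lay between -6.35 and -5.98, with a mean of -6.18 ± 0.15 (SD, n = 4). With about 1 treated read in line #3, the pseudocount of 1 sets part of this spread.

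**Figure D1:**
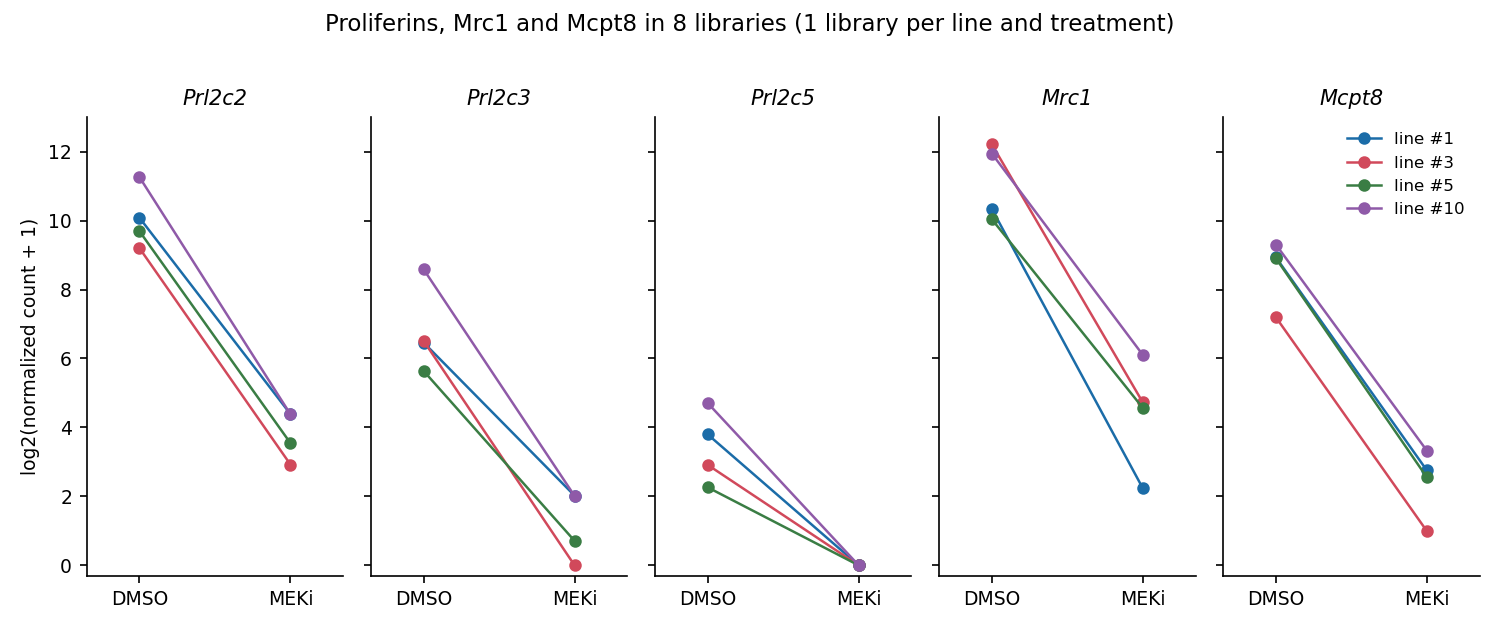
Normalized counts of the 5 members on the scale of log2(normalized count + 1), with 1 point per library and lines joining the DMSO and MEKi libraries of each of the 4 cell lines. Every line runs down in every panel, from 1050.3 to 4739 normalized counts to at most 67.8 for Mrc1, and Prl2c5 is at 0 in all 4 MEKi libraries.

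All 5 members were lower with MEKi in 4 of 4 lines, and their treated and control libraries did not overlap. Among the 15888 genes that averaged at least 10 normalized counts, 16.2% had MEKi libraries that were all below all DMSO libraries. Since this contrast chose the members, nothing is read from the comparison of these shares. Ordered by the mean log2 difference, the members took ranks 2 (Mrc1), 3 (Prl2c2), 4 (Mcpt8) and 6 (Prl2c3) from the bottom of all tested genes. In RNA from a whole culture, fewer cells that express a gene cannot be told apart from less RNA of that gene in each cell.

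Levels of different genes can be compared only per length of transcript. With DMSO, Prl2c2 had a mean of 1469 normalized counts per kilobase, followed by Mcpt8 with 520, Mrc1 with 513, Prl2c3 with 178 and Prl2c5 with 14.3. Mcpt8 and Mrc1 were close in their means but did not follow each other over the lines. Mcpt8 was at 582, 174, 572 and 753 per kilobase in lines #1, #3, #5 and #10, and Mrc1 at 241, 882, 195 and 733. Mrc1 was thus above Mcpt8 in line #3 alone and just under it in line #10. Prl2c2 was above the other 4 members in lines #1, #5 and #10, while in line #3 Mrc1 with 882 stood above Prl2c2 with 698.

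**Figure D2:**
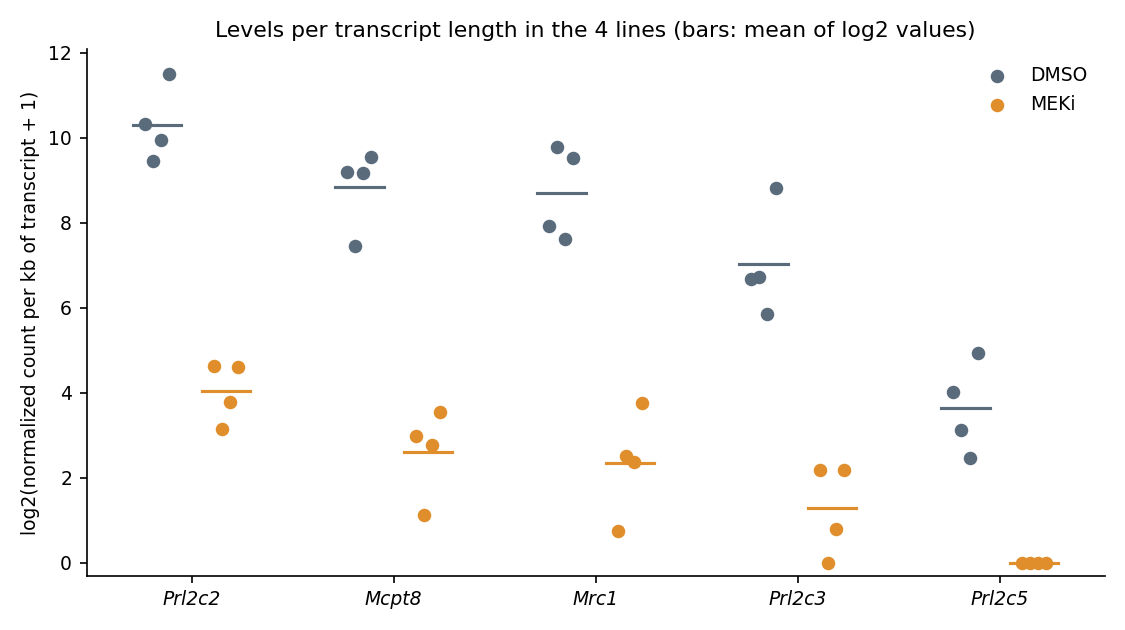
Level per kilobase of transcript on a log2 scale for the 5 members, with 1 point per library, grey for DMSO and orange for MEKi, and a bar at the mean of the log2 values. Mcpt8 and Mrc1 overlap with DMSO, with means of 520 and 513 normalized counts per kilobase, and Prl2c5 is the lowest member under both treatments.

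The control libraries alone show how the members vary between lines, a measure on 4 points that is given without a test. The proliferins went together, with a Pearson correlation of log2 values of 0.85 between Prl2c2 and Prl2c3 and of 0.91 between Prl2c3 and Prl2c5. Part of the first value can come from reads divided between both genes. Mrc1 and Mcpt8 were at -0.49 over the same 4 libraries. Pairs of Mrc1 or Mcpt8 with a proliferin ran from 0.15 (Mrc1 and Prl2c2) to 0.78 (Mcpt8 and Prl2c2), with Mrc1 and Prl2c3 at 0.64. Over all 8 libraries each pair of members was at 0.897 or more, because treatment separates the libraries into 2 groups and the members were chosen for that separation.

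For the same reason, the genes whose pattern over the 8 libraries was most like that of a member were other genes that differ between treatments. By Pearson correlation of log2 values over 8 libraries, the nearest to Prl2c2 were Rpusd1 (0.994), Nmt2 (0.993) and Cdc5l (0.992). The nearest to Prl2c3 were Spout1 (0.991), Hnrnpa3 (0.989) and Haus2 (0.987), and those to Mrc1 included Uspl1 (0.992) and Wdr12 (0.990). Ppid (0.995), Asap2 (0.994) and Rpusd1 (0.994) were nearest to Mcpt8. Prl2c5 was nearest to the kinase gene Txk (0.980), the gene model Gm15230 (0.974) and Prl2c3 (0.966). These genes had the shape and not the size of the members, since their log2 differences lay between -2.47 and -0.49 except for Prl2c3. Between 22 genes for Prl2c5 and 365 genes for Mcpt8 exceeded a correlation of 0.95, so that the genes named are only the head of a long list.

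The stretch before the start site was compared for the members with a RefSeq promoter, which were Prl2c3, Prl2c5, Mrc1 and Mcpt8. Each window of 300 bases holds 250 bases before the start and 50 bases from it. Prl2c3 and Prl2c5 were identical at 287 of 299 aligned bases (96.0%). Both are shown with Mrc1 for the 250 bases before the start, on the gene's strand in GRCm38.p6, with matches to 7 short motifs in capitals. Prl2c3 is chr13:12800080-12800329 on the minus strand, Prl2c5 is chr13:13182466-13182715 on the plus strand, and Mrc1 is chr2:14229164-14229413 on the plus strand.
Prl2c3: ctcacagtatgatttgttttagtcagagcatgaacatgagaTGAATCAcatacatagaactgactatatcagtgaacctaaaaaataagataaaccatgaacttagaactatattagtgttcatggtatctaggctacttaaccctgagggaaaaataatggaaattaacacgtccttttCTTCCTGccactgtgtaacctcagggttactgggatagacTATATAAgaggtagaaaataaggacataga
Prl2c5: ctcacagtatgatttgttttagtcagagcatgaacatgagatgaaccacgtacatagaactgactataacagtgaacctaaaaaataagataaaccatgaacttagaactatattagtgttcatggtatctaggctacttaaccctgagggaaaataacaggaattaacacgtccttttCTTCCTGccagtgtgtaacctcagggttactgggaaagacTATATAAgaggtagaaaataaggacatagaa
Mrc1: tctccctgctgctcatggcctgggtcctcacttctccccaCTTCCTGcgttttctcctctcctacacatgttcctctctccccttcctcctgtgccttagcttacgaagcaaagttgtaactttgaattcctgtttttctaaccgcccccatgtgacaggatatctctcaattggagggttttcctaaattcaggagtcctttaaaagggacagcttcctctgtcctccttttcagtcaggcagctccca
The motifs were searched on both strands in the windows of 300 bases. The AP-1 motif TGANTCA occurred once among the 4 members, as TGAATCA in Prl2c3, starting 209 bases before the start site (position -209), and 7.81% of 32851 promoter windows held it. The ETS motif CAGGAAG occurred on the opposite strand at -70 in Prl2c3, -71 in Prl2c5 and -210 in Mrc1, and 13.3% of windows held it. The motif TATATAA occurred at -30 in Prl2c3 and at -31 in Prl2c5, against 3.24% of windows. The letters TGACGTCA of the cyclic AMP response element (1.79% of windows), CCGGAAG (8.86%) and GAGGAAGT (3.20%) of ETS factors, and AGATAAG of GATA factors (3.04%) were in none of the 4 windows. Mcpt8 held none of the 7 motifs. CAGGAAG and GAGGAAGT share the core GGAAG with CCGGAAG, so that these searches are not independent. A match is a description of letters and not a binding site.

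The effect of the inhibitor on its pathway was read from a list of 18 genes controlled by ERK, of which 14 fell and 4 did not pass the test. The test was limma with the cell line in the model and Benjamini-Hochberg adjustment over the 15888 genes, at a threshold of 0.05. With 1 library per line, its p-values measure the spread of the difference between these 4 lines. By this test 25.6% of all genes were lower with MEKi and 27.3% were higher. The phosphatase gene Dusp6, a feedback inhibitor of ERK, fell from 7011 ± 2055 to 1310.1 ± 670.1 normalized counts (SD, n = 4), a log2 difference of -2.51 ± 0.14 (SE, limma adjusted p = 0.00012). Etv4, an ETS factor downstream of ERK, fell from 2625 ± 401 to 48.6 ± 27.2, a log2 difference of -5.92 ± 0.39 (SE, limma adjusted p = 0.00020). The median log2 difference of the list was -1.29, against 0.07 over all tested genes. None of the 18 rose in the fit as reported. The members, at -5.61 to -6.72 for those that reached the filter, lay around the lower end of this list, where Etv4 was the lowest.

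AP-1 factors, dimers of Fos, Jun and related proteins that act on ERK signals, did not move in one direction. Of 12 tested genes of the list, 3 fell and 6 rose, with a median log2 difference of 0.18. Fosl1, a Fos-type subunit that ERK stabilises, fell in 4 of 4 lines, from 3289 ± 1206 to 305 ± 200.5 normalized counts (SD, n = 4), a log2 difference of -3.73 ± 0.29 (SE, limma adjusted p = 0.00031). Fos fell by 1.89 and Fosb by 1.19 on the log2 scale (limma adjusted p = 0.0010 and 0.012). The call of Fosb was lost without line #1 (limma adjusted p = 0.051).

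The genes that rose were led by Atf3, a stress-induced partner of Jun, with a log2 difference of 2.41 ± 0.14 (SE, limma adjusted p = 0.00015). Jun rose by 1.76, Fosl2 by 1.36 and Jund by 1.02 on the log2 scale (limma adjusted p = 0.0038, 0.00032 and 0.0020). In the order #1, #3, #5 and #10, Jun with DMSO stood at 1426, 275, 1390.2 and 636 normalized counts, and at 2934, 2348, 3557 and 1857 with MEKi, so that the groups did not overlap. Smaller rises were found for Junb (0.41, limma adjusted p = 0.029) and the small Maf gene Mafk (0.32, limma adjusted p = 0.025). Both of these calls were lost without line #1 (limma adjusted p = 0.073 for Junb and 0.10 for Mafk) and without line #5 (0.11 and 0.10), and that of Junb also without line #10 (0.12). When the cell line was not in the model, Fosb, Junb and Mafk did not pass (limma adjusted p = 0.12, 0.58 and 0.23). Batf3, Maff and Mafg had log2 differences of -0.66, 0.04 and 0.00 and did not pass.

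**Figure D3:**
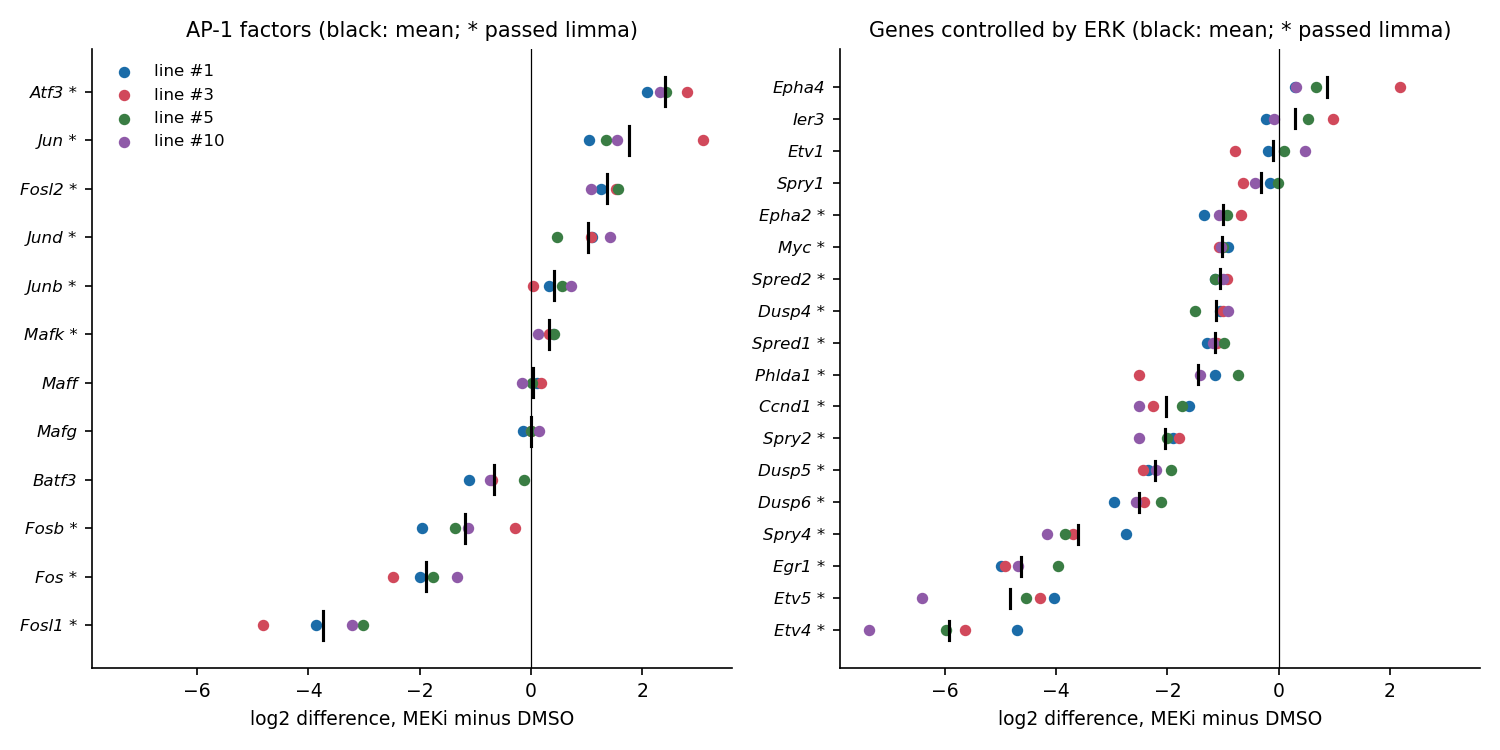
Log2 difference of MEKi minus DMSO for the tested AP-1 factors (left) and the genes controlled by ERK (right), with 1 point per line, a black bar at the mean of 4 lines and a star for genes that passed in limma. Fosl1, Fos and Fosb are to the left of 0 in every line while Atf3, Jun, Fosl2 and Jund are to the right, and 14 of 18 genes of the right panel carry a star, with Etv4 the lowest at -5.92.

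Of the rest of the prolactin family, 24 listed genes, 15 were analysed and only 1 reached the filter. This was Prl8a1, which stood at 76.7 to 182 normalized counts with DMSO and at 117 to 210 with MEKi, a log2 difference of 0.58 ± 0.19 (SE, limma adjusted p = 0.036), higher in 4 of 4 lines. The call was lost without line #1 (limma adjusted p = 0.099), without lines #5 or #10 (0.13 each), and when the cell line was not in the model (0.24). The other 14 were near 0, and 9 of the 15 never exceeded the floor of 3 reads in any of the 8 libraries. Prl, the pituitary hormone itself, was listed at 0 in every library. Prl2c1, the proliferin-related gene with 94.0% coding identity to Prl2c2, was listed at 0 in 7 of 8 libraries and at 0.818 normalized counts in the library of line #10 with MEKi. The highest of the family other than the proliferins and Prl8a1 were Prl3d1, with at most 9.28, and Prl3d2, with at most 8.49 normalized counts, both named after their values were seen.

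Markers of trophoblast, the cell type of the placenta that makes proliferins, were mixed. Of 28 listed genes 22 were analysed and 11 tested, of which 1 rose, 4 fell and 6 did not pass, with a median log2 difference of 0.00. Summed levels were 20832 to 24076 normalized counts with DMSO and 13314 to 17810 with MEKi. Plac8, which pancreatic tumour cells also express, made up most of this sum and had the highest mean, 17843 ± 1459 with DMSO and 11897 ± 2331 with MEKi (SD, n = 4; log2 difference -0.60, limma adjusted p = 0.0040). Psg17, a pregnancy-specific glycoprotein gene, fell by 2.68 on the log2 scale (limma adjusted p = 0.0010), from 89.4 to 143 normalized counts with DMSO to 7.82 to 34.7 with MEKi. Psg16 of the same family rose by 0.65 on that scale (limma adjusted p = 0.0058), a call that was lost when the cell line was not in the model (0.089). Cdx2, a factor of trophoblast stem cells and of gut epithelium, stood at 758 to 3229 normalized counts with DMSO and 210 to 1229 with MEKi, and fell by 1.81 on the log2 scale (limma adjusted p = 0.00033). Tead4, a factor that acts before Cdx2 in the early embryo and is also expressed in other epithelia, fell by 0.64 (limma adjusted p = 0.0023). Eomes, another stem cell factor, had means of 97.7 with DMSO and 94.1 with MEKi and did not pass (log2 difference 0.12). Peg10, Esx1 and Gata3 had means of 166, 42.3 and 34.5 normalized counts with DMSO and 87.9, 31.4 and 34.2 with MEKi, and did not pass. The control means of Peg10 and Esx1 came mostly from line #3, with 549 and 115 against at most 91.3 and 23.95 in the other lines. Hand1 was at no more than 4.42 normalized counts, Ascl2 at no more than 3.20 and Tpbpa at no more than 2.31, and the placental cathepsin gene Ctsm was listed at 0 in all 8 libraries.

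Proliferin binds the receptor for insulin-like growth factor 2 and mannose 6-phosphate, encoded by Igf2r, through its mannose 6-phosphate tag. Control libraries of lines #1, #3, #5 and #10 held 4079.7, 5747, 3554 and 5029 normalized counts of Igf2r, and treated ones 9413, 17527, 7618 and 12697. Each treated library was above each control library, and the log2 difference was 1.31 ± 0.10 (SE, limma adjusted p = 0.00033). Gnptg, a subunit of the enzyme that attaches the tag, rose by 0.49 on the log2 scale (limma adjusted p = 0.027), a call lost without line #1 (0.11), without line #10 (0.093) and when the cell line was not in the model (0.14). M6pr, the second receptor for the tag, and Gnptab, which encodes the catalytic subunits, had log2 differences of 0.18 and -0.07 and did not pass. Nagpa, which uncovers the tag, was at -0.10, and the growth hormone receptor gene Ghr at 0.35, and neither passed. The receptor of prolactin, Prlr, was at 1.55 to 6.86 normalized counts over the 8 libraries and below the filter.

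Factors that act on vessels and their receptors, listed for the role of proliferin in the placenta, moved in both directions, with 6 of 16 tested genes higher and 2 lower at a median log2 difference of 0.54. Tek, the receptor of angiopoietins, had the largest rise, 3.77 ± 0.52 (SE, limma adjusted p = 0.0015), from a mean of 8.22 to 250.4 normalized counts. Most of the treated mean came from line #3, as lines #1, #3, #5 and #10 held 152.5, 805, 30.5 and 13.5 with MEKi. Thbs1, encoding the vessel inhibitor thrombospondin, had the highest mean level and rose by 3.64 on the log2 scale (limma adjusted p = 0.00054). Angptl4 had the largest fall, -2.09 ± 0.08 (SE, limma adjusted p = 7.8e-05).

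Whether the high Mrc1 of control cultures went with other genes of macrophages was examined with 2 lists. Of 25 markers of leukocytes and macrophages 20 were analysed and 12 tested, of which 3 rose, 1 fell and 8 did not pass, at a median log2 difference of 0.41. Their summed level was 1829 to 2851 normalized counts with DMSO and 1775 to 4075 with MEKi, most of it from Cd14, the co-receptor for lipopolysaccharide, with 1609 ± 630 and 1941 ± 1186 (SD, n = 4), which did not pass (log2 difference 0.17). Ptprc, encoding the pan-leukocyte antigen CD45, was at 7.31 to 17.2 normalized counts with DMSO and 4.05 to 16.6 with MEKi. Besides Csf1r, the genes that rose were Lcp1, an actin-bundling protein gene that tumour cells can also express, with means of 117 with DMSO and 269.8 with MEKi, and the Fc receptor gene Fcgr3, with means of 68.2 and 116 (log2 differences 1.40 and 0.68, limma adjusted p = 0.0019 and 0.030). Neither passed when the cell line was not in the model (0.18 and 0.50), and Fcgr3 did not without line #1 (0.11), #5 (0.054) or #10 (0.13). Cd68, a lysosomal protein gene of macrophages, had means of 153 and 183, and the receptor kinase gene Mertk of 57.2 and 103, and neither passed. Laptm5 stood at 6.54 to 152 normalized counts with DMSO, highest in line #3, and at 5.01 to 48.7 with MEKi. Coro1a, Cybb and Itgam had means of 19.5, 13.55 and 11.1 with DMSO and 24.9, 26.3 and 13.9 with MEKi. None of these genes passed. Lyz2, the lysozyme gene of macrophages and granulocytes, was at 1.91 or less in every library, and Ctss, Cd52 and Aif1 were at most 2.33, 2.52 and 5.70. Adgre1, the complement genes C1qa, C1qb and C1qc, and Tyrobp were not analysed here.

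The 1 gene of this list that fell was Cd53, a tetraspanin gene of leukocytes. Lines #1, #3, #5 and #10 held 209.5, 32.2, 27.3 and 81.5 normalized counts of it in control libraries and 3.91, 0, 0 and 0.962 in treated ones, a log2 difference of -5.17 ± 0.35 (SE, limma adjusted p = 0.00021). The groups did not overlap. Csf1r, the receptor that macrophages depend on, went the other way. The same lines held 10.2, 1.05, 17.5 and 46.9 normalized counts of Csf1r in control libraries and 124, 14.2, 79.9 and 340.0 in treated ones, higher in 4 of 4 lines by 2.83 ± 0.31 on the log2 scale (SE, limma adjusted p = 0.00070). Its order of lines was not that of Mrc1, and the call was lost when the cell line was not in the model (0.089).

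Of 19 genes of alternatively activated macrophages, the state for which Mrc1 serves as a marker, 17 were analysed and 6 tested. Of these 3 rose, 1 fell and 2 did not pass, at a median log2 difference of 1.26. Cd163, Folr2 and Msr1 were listed at 0 in all 8 libraries, and 9 of the 17 were never above the floor of 3 reads. The gene that fell was Il4ra, the receptor subunit for interleukin 4, from 2994 ± 872 to 889 ± 189 normalized counts (SD, n = 4), a log2 difference of -1.73 ± 0.09 (SE, limma adjusted p = 9.7e-05). Tgm2, encoding a transglutaminase that many other cells express, had the largest rise, 2.72 ± 0.15 (SE, limma adjusted p = 0.00012), and the highest mean with MEKi. Stab1 rose by 1.61 on the log2 scale (limma adjusted p = 0.0033), but did not pass when the cell line was left out of the model (0.061). The part of leukocyte RNA in the Mrc1 result was not tested beyond these levels.

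Genes related to Mrc1 by structure or by binding of sugars moved in both directions. Of the mannose receptor family and other lectin receptors, 14 genes of which 9 were tested, 4 rose, 1 fell and 4 did not pass, at a median log2 difference of 0.72. The family members Pla2r1 and Ly75 rose by 1.82 and 0.69 on the log2 scale (limma adjusted p = 0.0013 and 0.011), and Mrc2 was at 0.72 and did not pass. The galectin gene Lgals3, which had the highest level of the list, fell by 0.90 on that scale (limma adjusted p = 0.012). The calls of Pla2r1, Ly75 and Lgals3 were lost when the cell line was not in the model (limma adjusted p = 0.099, 0.15 and 0.23).

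For Mcpt8, 23 genes of mast cells and basophils were listed, 19 analysed and 6 tested. Of these 3 rose, 2 fell and 1 did not pass, at a median log2 difference of 0.54 and with summed levels of 537 to 1059 normalized counts with DMSO and 1048 to 2389 with MEKi. The 2 that fell were proteases of the same locus, Mcpt1 and Mcpt2. Mcpt1 in lines #1, #3, #5 and #10 was at 42.7, 46.4, 31.1 and 17.2 normalized counts in control libraries and at 6.82, 1.89, 5.64 and 6.73 in treated ones, a log2 difference of -2.51 ± 0.49 (SE, limma adjusted p = 0.0056). Mcpt2 was at 69.8, 146, 51.0 and 24.9 with DMSO and at 13.6, 11.3, 8.86 and 31.7 with MEKi, so that line #10 alone was higher with MEKi. Its log2 difference of -1.98 ± 0.60 (SE, limma adjusted p = 0.030) was not called without line #1 (0.098), #3 (0.083) or #5 (0.098).

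The 3 genes of the list that rose were Kit, Il3ra and the integrin gene Itga2b. Kit, the receptor for stem cell factor, had the largest rise of the list, 3.15 ± 0.46 on the log2 scale (SE, limma adjusted p = 0.0017), a call lost when the cell line was not in the model (0.12), as was that of Il3ra, the interleukin 3 receptor gene with the highest mean of the list (0.95, limma adjusted p = 0.0025 with and 0.14 without). The receptor genes for immunoglobulin E were at or under 3.47 normalized counts for Ms4a2 and 1.16 for Fcer1a. Ccr3, Csf2rb and the mast cell factor gene Gata1 were listed at 0 in all 8 libraries. These receptor genes and Gata1 were thus at or near 0 in both groups. Il3ra and Itga2b, with means of 295 and 39.1 normalized counts with DMSO and 534 and 154 with MEKi, were not. Kit had means of 65.9 with DMSO and 443 with MEKi, which came mostly from line #3. In lines #1, #3, #5 and #10 Kit stood at 14.8, 223, 24.1 and 1.41 normalized counts with DMSO. With MEKi the same lines held 87.2, 1479, 131 and 75.2. Kit was thus near 0 in line #10 with DMSO. The part of the genes of this list in the Mcpt8 result was not tested further.

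Of 16 granzyme, cathepsin G and granule genes, 5 were tested, of which 3 fell, 1 rose and 1 did not pass, at a median log2 difference of -0.80. Gzme is a granzyme gene of the same locus. Its control libraries of lines #1, #3, #5 and #10 were at 89.9, 46.3, 199 and 143 normalized counts and its treated ones at 0.972, 0, 13.7 and 5.76. All treated libraries were under all control libraries, with a log2 difference of -4.82 ± 0.41 (SE, limma adjusted p = 0.00036). Ctsc, which activates granule proteases, fell by 1.11 on the log2 scale (limma adjusted p = 0.00053). Serpinb9, an inhibitor of granzyme B, rose by 2.30 (limma adjusted p = 0.00055), although Gzmb itself was at 11.7 normalized counts or less in every library. Serpinb6a, a related inhibitor, had the highest mean level of the list, 10961 ± 1689 with DMSO (SD, n = 4), and fell by 0.80 on the log2 scale (limma adjusted p = 0.0012).

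**Figure D4:**
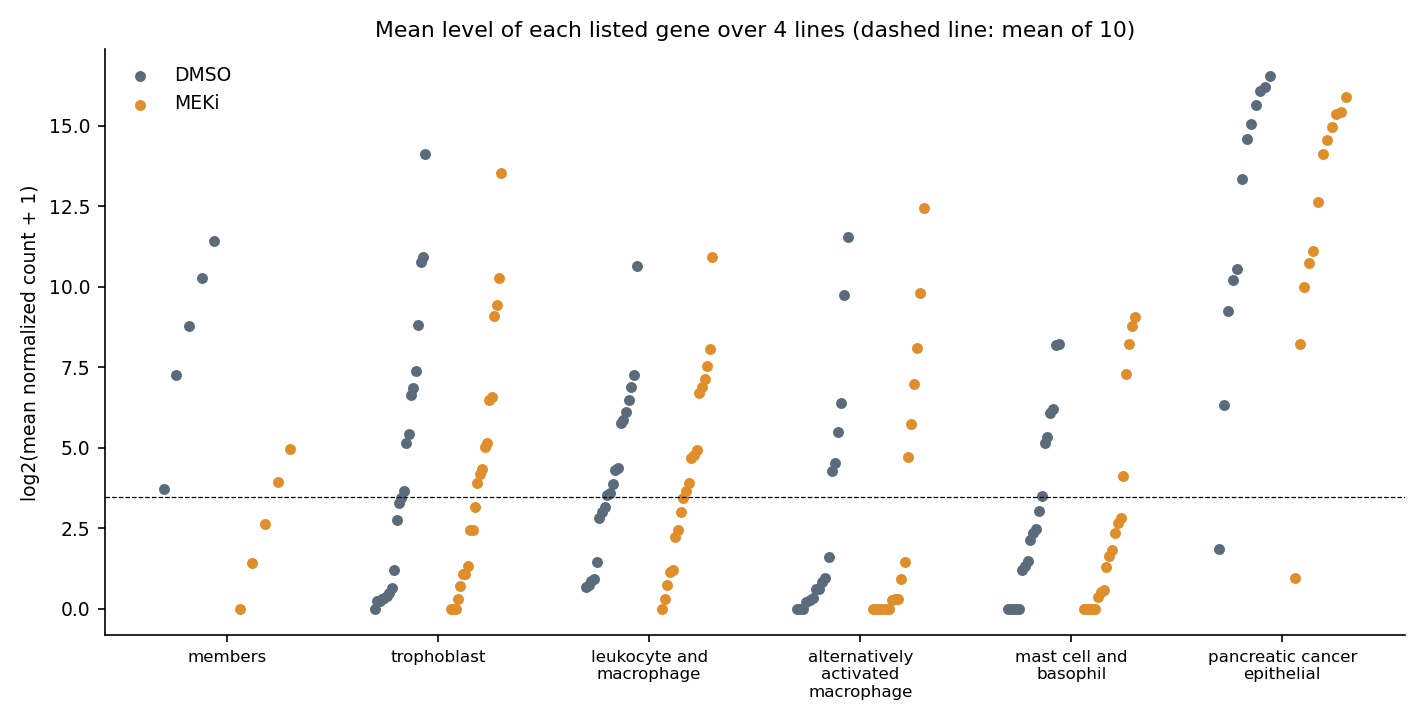
Mean level over 4 lines of each gene on the scale of log2(mean normalized count + 1), grey for DMSO and orange for MEKi, for the 5 members and 5 lists of cell type genes, each sorted by level. The members lie between means of 12.1 and 2755 with DMSO and between 0 and 29.9 with MEKi, whereas in the lists for trophoblast and blood cells many genes lie below the dashed line at a mean of 10 under both treatments.

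The labelled tissue was checked against a list of 12 genes, markers of pancreatic cancer epithelium together with the mesenchymal genes Vim and Zeb1. The keratin genes Krt8, Krt18 and Krt19 had means of 95732, 69556 and 50882 normalized counts with DMSO, and the E-cadherin gene Cdh1 one of 24588. Epcam was listed at 0 in 6 of the 8 libraries and reached 10.4 normalized counts in line #3 with DMSO. With MEKi, 3 of 11 tested genes of the list rose and 7 fell, at a median log2 difference of -0.74. Of the mesenchymal genes in these counts, Vim fell by 0.78 and Zeb1 rose by 0.58 on the log2 scale (limma adjusted p = 0.0023 and 0.0033). The claudin gene Cldn4 rose most, by 4.61 ± 0.55 (SE, limma adjusted p = 0.00096), and Sox9 fell most, by 1.49 on the log2 scale (limma adjusted p = 0.013). The calls of Krt7, Krt8 and Krt19 were lost without line #5 (limma adjusted p = 0.053, 0.079 and 0.12), which brings the count of genes that fell to 4, and that of Krt19 also without line #3 (0.05). When the cell line was not in the model, none of the 7 passed as lower.

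Transcription factors known to act in myeloid cells were also examined, with 3 of 12 tested genes higher, 2 lower and 7 not passed. Runx1 fell by 1.32 on the log2 scale (limma adjusted p = 0.00032), from 2493 ± 430 to 998 ± 184 normalized counts (SD, n = 4). Pparg, a factor of lipid metabolism that is required for some alternatively activated macrophages, fell by the same 1.32 (limma adjusted p = 0.0028), from 2616 ± 548 to 1047 ± 222. Cebpd had the largest rise, 1.14 ± 0.34 (SE, limma adjusted p = 0.027), lost without line #1 (0.10), #3 (0.063) or #5 (0.069). Id2, an inhibitor of helix-loop-helix factors, had the highest mean with MEKi and did not pass (log2 difference 0.26). Spi1, which encodes the macrophage master factor PU.1, was at 0.724 to 8.89 normalized counts over the 8 libraries, and Cebpe was listed at 0 in all of them.

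The neighbours of the members along the chromosome moved in both directions. Of 20 protein-coding genes around the proliferins, 10 on each side, 17 were tested, of which 6 rose, 6 fell and 5 did not pass. Hecw1, a ubiquitin ligase gene, had the largest rise, 2.61 on the log2 scale (limma adjusted p = 0.0086). The nearest on one side, Ero1lb at chr13:12565874-12611396, averaged 155 normalized counts in control libraries and 164 in treated ones, a log2 difference of 0.05 (limma adjusted p = 0.82). The nearest on the other side, Gpr137b at chr13:13357620-13394014, fell by 0.54 on the log2 scale (limma adjusted p = 0.014), a call lost when the cell line was not in the model (0.096). Around Mrc1, 3 of 17 tested genes rose, 4 fell and 10 did not pass. Tmem236 at chr2:14174523-14221993 was at -0.65 and did not pass (limma adjusted p = 0.12). Slc39a12 at chr2:14388316-14494977, which encodes a zinc transporter, was below the filter. In lines #1, #3, #5 and #10, control libraries held 8.49, 7.24, 1.25 and 5.79 normalized counts of it and treated ones 0, 0.942, 0 and 0.967.

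Of the 20 neighbours of Mcpt8, 18 were analysed and 7 tested, of which 1 rose, 4 fell and 2 did not pass. The 4 that fell were Khnyn, Mcpt1, Mcpt2 and Gzme. Mcpt9, too low to be tested, was at 1.55 to 13.5 normalized counts with DMSO and at 0.938 or less with MEKi. The granzyme genes Gzmb and Gzmg, also too low to be tested, had means of 1.02 and 3.10 normalized counts with DMSO and of 4.26 and 4.37 with MEKi. The genes next to Mcpt8 were Mcpt4 at chr14:56059629-56062313, with a mean of 4.10 normalized counts with DMSO and 2.55 with MEKi, and Ctsg at chr14:56099881-56102574, listed at 0 throughout. Whether the neighbourhoods of the 3 loci differ was not tested. Over all 3 neighbourhoods, 10 of 41 tested genes rose and 14 fell, at a median log2 difference of -0.19. Among all tested genes 27.3% were higher and 25.6% lower, at a median of 0.07.

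**Figure D5:**
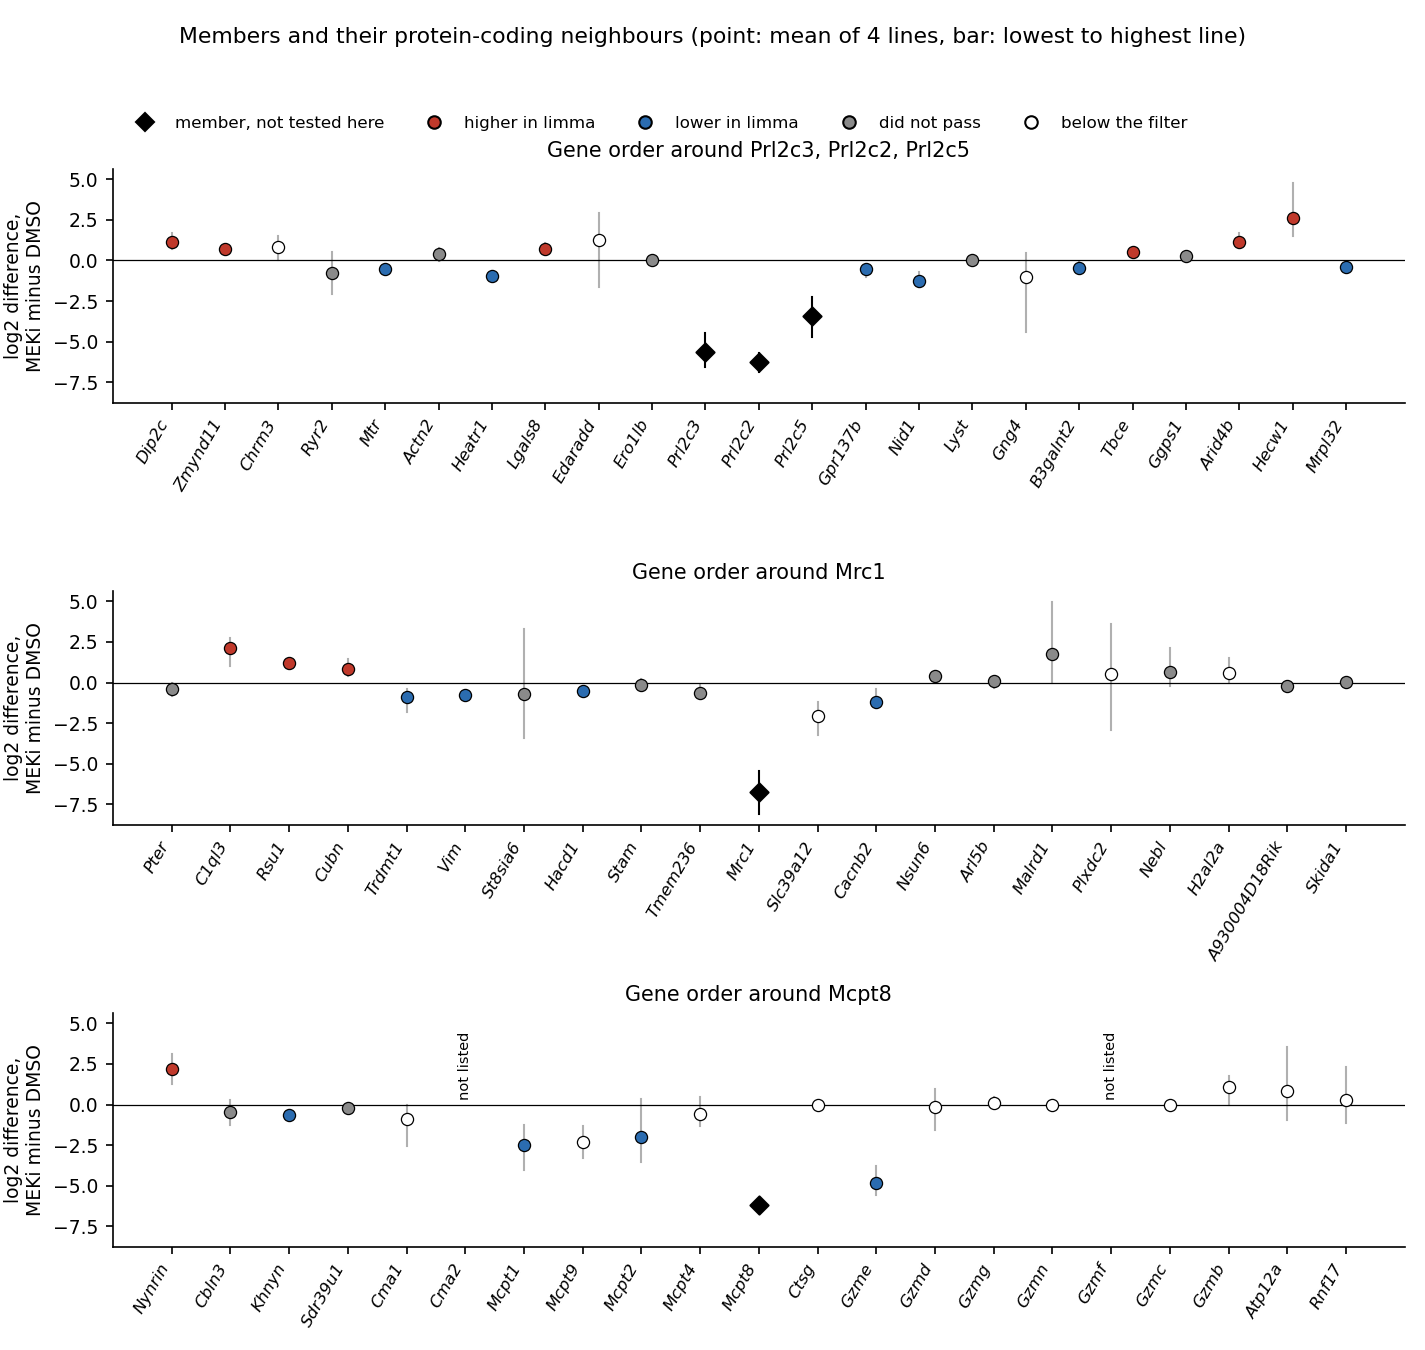
Log2 difference of MEKi minus DMSO in gene order for the 10 nearest protein-coding genes on each side of the proliferins, of Mrc1 and of Mcpt8, with a point at the mean of 4 lines and a bar from the lowest to the highest line. The members (black) are the lowest of each panel, and in the bottom panel Mcpt1, Mcpt2 and Gzme (blue) are the proteases that passed as lower, with Gzme at -4.82.

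Counts over all genes depend on how libraries are scaled. Of the genes called in limma, 51.6% were higher with MEKi at a median log2 difference of 0.07 over all tested genes. After libraries were rescaled to equal totals, 61.9% of calls were higher and the median was 0.20. With quantile normalization the values were 47.2% and -0.03, and with libraries centred on their median 46.1% and 0.01, so that lower calls were then the majority. With equal totals, quantile normalization and centring, the log2 difference of Prl2c2 was -6.13, -6.43 and -6.31. The same settings gave -5.53, -6.08 and -5.67 for Prl2c3, and -6.60, -6.99 and -6.78 for Mrc1. They gave -6.07, -6.53 and -6.24 for Mcpt8, where the reported value is -6.18. Prl2c5, below the filter, was at -3.37 with equal totals and was not computed with quantile normalization or centring. Library totals were 30680091 to 36385719 normalized counts, which the steps between low values place at about 29300000 to 46000000 reads, and 3 reads corresponded to 2.32 to 3.72 normalized counts.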

How the data were processed

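Poly(A) RNA of 4 murine PDAC lines with DMSO or trametinib was sequenced in 8 libraries (stranded TruSeq mRNA kit, paired reads of 100 bases). The submitters' processing notes name CASAVA 2.17, Salmon 0.12, DESeq2 1.18 and the build mm10, without saying what each did. The authors deposited normalized counts per gene symbol, a signal scaled so that libraries can be compared, and its 8 columns were all used. Low values were whole multiples of a library's step in 56.3% to 68.5% of cases (tolerance 0.05 of a step), so whole reads were not recovered and no count test was run. Reads given as "about" are values divided by the step, and intervals and the floor of 3 reads cover counting error only.

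Values were tested as log2(value + 1) in limma 3.58.1 (R 4.3.3; lmFit, eBayes with trend) on the 15888 genes that averaged at least 10, with the cell line as a block, Benjamini-Hochberg adjustment and a threshold of 0.05. The numbers pair the libraries because they name the same cell line, and both libraries of a line deviated together from their treatment means (correlations of 0.631 to 0.724 across genes). In simulated data of 15133 genes the fit recovered 77 of 83 genes changed by 1 on the log2 scale. It recovered 102 of 103 changed by 2. Few genes were changed there, each by the same amount in every line, with noise set by a formula. In the real data 27.3% of tested genes were higher and 25.6% lower, and differences varied between lines. The simulated recovery therefore does not carry over to these data. Among the unchanged genes of the simulation, which held both sizes at once, 8 calls were false in total. The members and gene lists were chosen with earlier results of these data known. Named are the members; per list the largest rise and fall among genes that passed and the highest mean of marker lists; all tested AP-1 and receptor genes; adjacent neighbours; Dusp6 and Etv4; and the 3 genes most like each member. Other genes were named after their values were seen. A few items are not reported here. Alternatives were pseudocounts of 0.1 and 5, equal totals, quantile normalization, median centring, no filter, a filter at 50, no block, no trend, and leaving out each line. Positions and coding sequences are from GENCODE M21 (GRCm38), promoters from RefSeq. Python 3.11.15, pandas 2.3.3, scipy 1.17.1 and matplotlib 3.10.9 were used.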

Additional observations from a re-analysis of the deposited data

Results flagged for a closer look

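In groups of 4 libraries, a value was marked when its gap to the nearest other value took up an unusually large part of the group's range by Dixon's criterion. For the members and 13 further genes, the levels with DMSO, the levels with MEKi and the log2 differences of the 4 lines were each examined. These made 53 groups of 4 values, as Prl2c5 with MEKi was at 0 throughout and had no range. Of these, 3 held such a value, where chance alone gives about 2.65, and the groups of 1 gene share their libraries. Prl2c3 with DMSO was at 383.5 normalized counts in line #10 against 48.8 to 90.3 in the other 3 lines, while Prl2c2, which shares most of its coding sequence, was also highest in that line. Irf8, encoding a transcription factor of macrophages and dendritic cells and named once its values were known, stood at 32.7 normalized counts with DMSO in line #1 against 5.82 to 9.45 in the other lines. With MEKi, Irf8 was at 4.35 normalized counts in line #10 against 0 to 0.594 in the other lines, which is close to the floor of 3 reads. Irf8 was below the filter and was not tested.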

How the results depend on the processing

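Of 433 values recomputed under the alternatives, 391 stayed near the reported value and 42 moved further. Near meant within 1.5 times the reported count or, for the members, within 1 SD between lines. Reversal was looked for only in the members and not found, but they were chosen for their fall. Leaving out a line cannot move a member's mean by 1 SD, so those values had to stay near. Without the replicate block, calls went from 4341 to 2205 higher and from 4075 to 2347 lower, and 59 of 96 listed genes that had passed still did. Higher genes then numbered 0 for the prolactin family, trophoblast, leukocyte and myeloid factor lists and 1 for the receptor, lectin and mast cell lists, and lower genes 0 for the lectin and epithelial lists, 1 for the angiogenic list and 9 for the neighbours. The prolactin family lost its 1 higher gene (to 0) with quantile normalization and with no filter. The ERK list gained 1 higher gene with a pseudocount of 5, equal totals, quantile normalization or a filter at 50. That filter left 0 lower genes in the leukocyte and mast cell lists, which the smaller set of tested genes brings about for Cd53, Mcpt1 and Mcpt2. Without trend, 1 mast cell gene was lower, and with equal totals 6 myeloid factors were higher. Of the 96 listed calls, 1 was lost with median centring, 4 with equal totals, 5 with no filter, 7 without trend and 8 with quantile normalization. Leaving out each line gave 3383 to 4195 higher and 3302 to 4007 lower genes. The counts were then 0 to 1 higher for the prolactin family (0 without line #1, #5 or #10), 1 to 2 for the receptors (1 without #1 or #10), 2 to 5 for leukocyte genes (5 without #3), 1 to 3 for myeloid factors (1 without #1) and 0 to 1 for the ERK list (1 without #3). Lower genes were 1 to 2 for mast cells (1 without #1, #3 or #5) and 4 to 7 for the epithelial list (4 without #5). The log2 difference of Prl2c3 was -6.90 with a pseudocount of 0.1 and -4.15 with 5, that of Prl2c5 -6.58 and -1.61, and that of Mcpt8 -6.54 and -5.32, since low treated values weigh on the pseudocount. With quantile normalization Mcpt8 was at -6.53. Apart from these the cause was not tested. Prl2c5 has no value under quantile normalization and median centring, as it was below the filter. Depth limits Prl2c5 in every treated library and Mcpt8 in line #3. It also limits Prl2c3 in every treated library, with about 3 reads in lines #1 and #10 and fewer in lines #3 and #5.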
